A study of Mus musculus with 6 samples.

Results

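The genes described here are 10 genes of the osteoclast and of the RANKL system, found by gene name among the 43346 genes of the deposited table and measured in all 6 libraries. Of these, 3 encode enzymes of bone and cartilage resorption (Acp5, Ctsk, Mmp9), 3 act in cell fusion or acid secretion (Dcstamp, Ocstamp, Atp6v0d2), 1 encodes an integrin chain (Itgb3), and 3 form the RANKL system (the receptor Tnfrsf11a, the ligand Tnfsf11 and the decoy Tnfrsf11b). Polyadenylated RNA was sequenced from primary chondrocytes that collagenase had released from the epiphyses (the cartilage-rich bone ends) of C57BL/6 mice aged 5 days. The groups were 3 Girk3-null mice (Girk3-/-, labelled Girk3 KO) and 3 wild type mice. Girk3 is a subunit of G protein-gated potassium channels and is encoded by Kcnj9, and the comparison asked which transcripts differ in cells that lack it. The labels name no other allele or treatment in either group. Cells were taken straight from an overnight digest in culture medium, with no purification named, so cells of bone, marrow and vessels may be present beside chondrocytes.

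Osteoclasts are large multinucleated cells that form by fusion of precursors of the monocyte and macrophage lineage and that dissolve mineral and matrix. RANKL, made by stromal cells, osteoblast lineage cells and hypertrophic chondrocytes, binds RANK on the precursors and drives this process. Osteoprotegerin (OPG) is a soluble decoy receptor that captures RANKL. Where cartilage is replaced by bone, osteoclasts and related cells remove calcified cartilage at the growth plate border.

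Total counts per library were 34279516 to 60392837. Kcnj9 had 0 counts in every library of both genotypes, so it could not check the genotype labels. The labels give all mice as male, but only Girk3-null replicate 1 had the counts of a male (16088 counts over 4 Y-linked genes, against 0 to 7 in the other 5 libraries). Values of the 10 genes and medians of the gene lists are therefore also given without that library. Titles carry a number, below 200 in Girk3-null replicate 1 and wild type replicates 1 and 2 and above 200 in the other 3. What the number stands for is not stated, and differences within each range of numbers are given beside the pooled one. Below 200 the only Girk3-null library is replicate 1, so those differences cannot be told apart from its male counts. Above 200 the only wild type library is replicate 3. All 10 chondrocyte markers were abundant, with means of 83.6 to 11320 RPKM (counts scaled by gene length and library total) in Girk3-null and 46.1 to 7007 RPKM in wild type libraries.

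The levels of the 10 genes were highest for a resorption enzyme and lowest for the fusion genes. Averaged over the 6 libraries, Ctsk stood at 108 RPKM, Tnfrsf11b at 78.6, Mmp9 at 37.4, Acp5 at 15.4, Itgb3 at 10.8 and Tnfsf11 at 4.86 RPKM. Atp6v0d2 followed at 1.35 RPKM, Tnfrsf11a at 0.470, Dcstamp at 0.334 and Ocstamp at 0.146 RPKM. The ranges over libraries of Tnfrsf11b and Mmp9, of Mmp9 and Acp5, of Itgb3 and Tnfsf11, of Tnfsf11 and Atp6v0d2 and of Atp6v0d2 and Tnfrsf11a did not overlap. Those of the other neighbours in this order overlapped, although Acp5 was above Itgb3 in 6 of 6 libraries. Calcr, the calcitonin receptor of mature osteoclasts, had 0 to 5 counts in Girk3-null and 1 to 29 counts in wild type libraries, too few to be tested. Siglec15, a lectin of osteoclasts, had 0 to 4 counts in Girk3-null and 2 to 5 counts in wild type libraries.

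**Figure D1:**
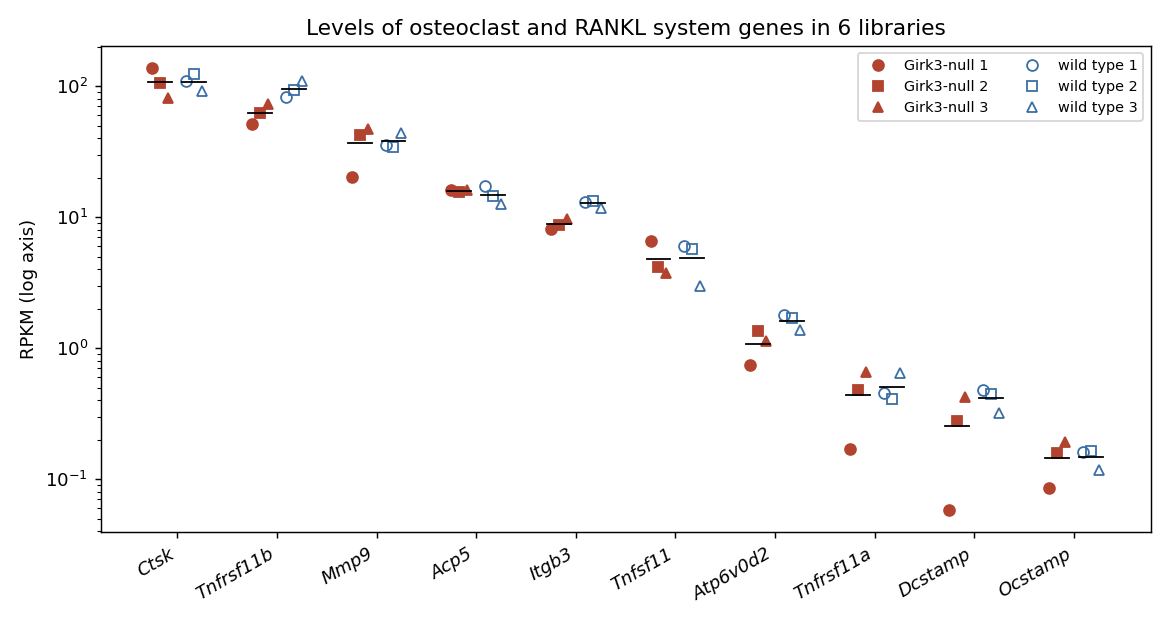
RPKM on a log axis of the 10 genes, ordered by mean, in 3 Girk3-null (filled) and 3 wild type (open) libraries, with marker shapes for replicates 1, 2 and 3 and a line at each group's mean. Levels run from 108 RPKM for Ctsk to 0.146 RPKM for Ocstamp on average, and Girk3-null replicate 1 (filled circle) lies lowest for 7 genes on the scale of CPM used for testing.

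All 10 genes passed the filter on low counts, and edgeR's quasi-likelihood F-test of Girk3-null over wild type called 0 of them at an adjusted p under 0.05, where 0.0057% of 17554 tested genes were called. DESeq2, which called 2.24% of 15171 genes, also called 0 of the 10. Limma-voom and each other fit called 0 of the 10 as well. Limma-voom and several of those fits called 0 of all tested genes, so their 0 could not set these genes apart from the rest. At an unadjusted p under 0.05 edgeR gave 2 of 10, Itgb3 and Tnfrsf11b, both lower in Girk3-null libraries, against 14.5% of all tested genes (7.02% lower and 7.49% higher). Without Girk3-null replicate 1 it gave 1, Itgb3, against 9.7% of all genes. The libraries of the 2 genotypes did not overlap for 2 of 10, Itgb3 and Atp6v0d2, again both lower, against 20% of all tested genes (10.2% lower and 9.86% higher). Without Girk3-null replicate 1 the groups did not overlap for 3 genes (Ocstamp higher, Itgb3 and Atp6v0d2 lower), against 28.3% of all genes. These counts lie near the background. The median log2 fold change was -0.04 over the 10 genes and 0.01 over all tested genes, with 5 positive and 5 negative. In this RNA of mixed cells, fewer cells of a type and less RNA per cell cannot be told apart.

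**Figure D2:**
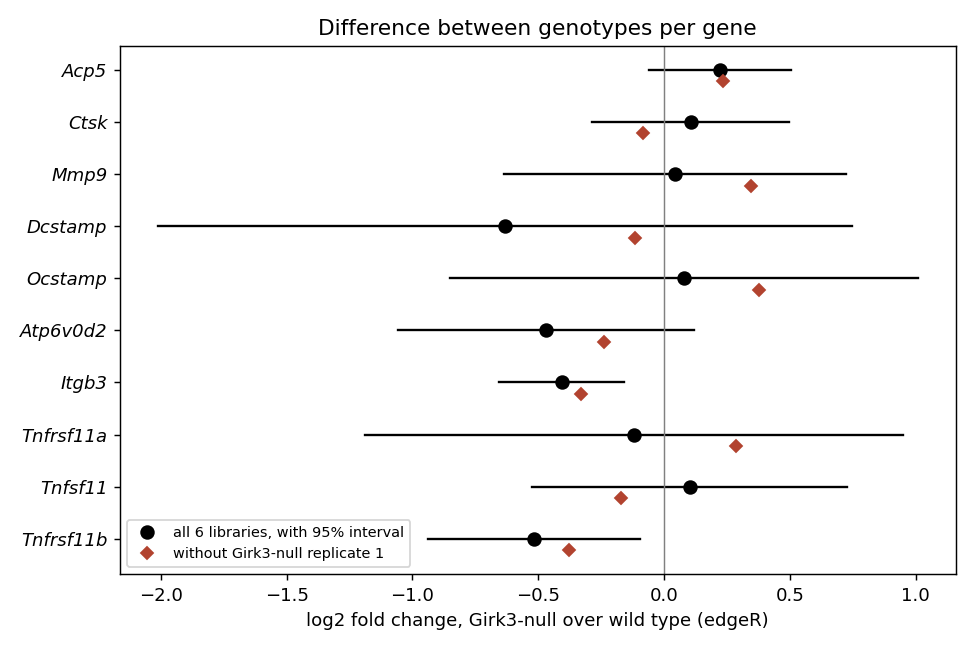
Log2 fold change of each gene, Girk3-null over wild type, from edgeR with its 95% interval (black) and without Girk3-null replicate 1 (red diamonds, no interval drawn). The intervals of Itgb3 and Tnfrsf11b lie below 0 before adjustment for 17554 genes. Without the library, the values of Acp5, Itgb3 and Tnfrsf11b move less than those of the other 7 genes.

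Among the resorption enzymes, Ctsk and Mmp9 differed little in mean between genotypes but spread widely among Girk3-null libraries. Ctsk (ENSMUSG00000028111; chromosome 3, 95499286 to 95509362, mm10) encodes cathepsin K, the collagen-cutting protease of osteoclasts that fibroblasts also make. It measured 208, 162 and 128 CPM in Girk3-null replicates 1, 2 and 3, against 153, 169 and 140 CPM in wild type replicates 1, 2 and 3 (CPM here are counts scaled to TMM-adjusted library sizes). The wild type libraries lay inside the range of the Girk3-null ones. For Ctsk the log2 fold change was 0.11 with a standard error of 0.17 and a 95% interval of -0.28 to 0.50 (adjusted p = 0.782 in edgeR). It was -0.09 when Girk3-null replicate 1 was left out and -0.001 with library size alone. Within title numbers below and above 200 the difference in log2 CPM was 0.37 and 0.04.

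Mmp9 (ENSMUSG00000017737; chromosome 2, 164940780 to 164955850), a gelatinase of osteoclasts and neutrophils, had 72.8, 154 and 179 CPM in Girk3-null libraries, against 119, 113 and 161 CPM in wild type libraries. Girk3-null replicate 1 was the lowest of the 6 and Girk3-null replicate 3 the highest. Its log2 fold change was 0.04 with a standard error of 0.30 (adjusted p = 0.959 in edgeR), -0.31 with the title number as a term and 0.35 without Girk3-null replicate 1. The difference in log2 CPM was -0.67 within title numbers below 200 and 0.04 above 200. The 10 neutrophil markers summed to 333, 645 and 104 CPM in Girk3-null libraries, against 696, 429 and 226 CPM in wild type libraries, and Girk3-null replicate 3, highest for Mmp9, was lowest for them.

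Acp5 (ENSMUSG00000001348; chromosome 9, 22126731 to 22135746) encodes tartrate-resistant acid phosphatase, the classical stain for osteoclasts. It was the steadiest of the 10 genes, with 26.3, 25.9 and 28.0 CPM in Girk3-null libraries, against 26.1, 21.5 and 21.03 CPM in wild type libraries. The groups overlapped through wild type replicate 1. The log2 fold change of 0.22 (standard error 0.12, 95% interval -0.06 to 0.51) did not pass (adjusted p = 0.411 in edgeR), and it was 0.24 without Girk3-null replicate 1. Within title numbers below and above 200 the difference was 0.15 and 0.36. In GENCODE M21, a later annotation of mm10, 6.7% of the exonic bases of Acp5 overlap an antisense transcript, 6530413G14Rik. Its gene identifier is absent from the deposited table, so it had no counts of its own. Whether reads from it were counted as Acp5 is not known, because the strand setting is not given.

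Promoter sequences are shown for Ctsk, Tnfsf11 and Acp5 because, among the 4 of 10 genes with an entry in the RefSeq promoter table (GRCm38.p6), they include the pairs whose levels moved most alike over the 6 libraries. Each line holds the 250 bases before a RefSeq start, 5′ to 3′ on the strand of the gene. Capitals mark matches on either strand to GGAAA (the core that NFAT factors bind), GAGGAA (core of PU.1), TGANTCA (AP-1), TCANGTGA (an E-box bound by MITF) or TGTGGT (core of RUNX factors). The first motif can overlap the second where GAGGAA is followed by A.
Ctsk (chr3:95498960-95499209, plus strand): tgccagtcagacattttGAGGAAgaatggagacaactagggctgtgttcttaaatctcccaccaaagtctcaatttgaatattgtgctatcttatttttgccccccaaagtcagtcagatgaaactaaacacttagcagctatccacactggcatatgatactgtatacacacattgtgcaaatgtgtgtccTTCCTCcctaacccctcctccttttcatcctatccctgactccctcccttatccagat
Tnfsf11 (chr14:78308044-78308293, minus strand): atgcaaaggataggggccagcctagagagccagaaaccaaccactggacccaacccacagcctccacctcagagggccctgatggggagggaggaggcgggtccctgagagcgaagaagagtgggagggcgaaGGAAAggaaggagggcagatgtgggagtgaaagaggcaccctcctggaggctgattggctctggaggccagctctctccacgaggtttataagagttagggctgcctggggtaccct
Acp5 (chr9:22130599-22130848, minus strand): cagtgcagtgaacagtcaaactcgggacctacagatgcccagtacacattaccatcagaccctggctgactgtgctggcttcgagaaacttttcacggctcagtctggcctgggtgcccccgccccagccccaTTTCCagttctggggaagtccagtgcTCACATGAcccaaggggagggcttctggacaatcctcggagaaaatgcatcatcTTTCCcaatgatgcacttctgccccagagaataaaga

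The Ctsk window held 2 matches to the PU.1 core, a motif present in 23.3% of 32851 promoter windows of the same length, and no other match. The Tnfsf11 window held 1 match to the NFAT core, which 55.6% of all windows hold. The Acp5 window shown held 2 NFAT cores and 1 MITF E-box, TCACATGA (the motif read from the other strand), and 3.5% of all windows hold that E-box. Of 3 Acp5 starts in the table it is the one with most matches, as the other 2 held 1 NFAT core each. The Tnfrsf11a window held 0 matches to any motif. AP-1 and RUNX letters stand in 6.7% and 14.0% of all windows and in none of the 6 windows of these genes. The 6 genes Mmp9, Dcstamp, Ocstamp, Atp6v0d2, Itgb3 and Tnfrsf11b had no entry.

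The fusion genes and the osteoclast pump subunit were low, and Girk3-null replicate 1 was the lowest library for each of them. Dcstamp (ENSMUSG00000022303; chromosome 15, 39745932 to 39760934) encodes DC-STAMP, a membrane protein that osteoclast precursors need to fuse. It had 7, 25 and 29 counts in Girk3-null libraries, against 42, 45 and 27 counts in wild type libraries. The 7 counts carry an exact 95% Poisson interval of 2.8 to 14.4, and the lowest wild type count, 27, one of 17.8 to 39.3 (counting error only). Scaled, these are 0.118, 0.573 and 0.904 CPM in Girk3-null and 0.889, 0.828 and 0.659 in wild type libraries, so that 1 Girk3-null library was far below the wild type range, 1 slightly below and 1 slightly above it. On the log2 scale the fold change was -0.63 (standard error 0.60, adjusted p = 0.626 in edgeR) and -0.12 when Girk3-null replicate 1 was left out. The difference in log2 CPM was -2.48 within title numbers below 200 and 0.12 above 200.

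Ocstamp (ENSMUSG00000027670; chromosome 2, 165393760 to 165400405), which encodes the related fusion protein OC-STAMP, had 19, 26 and 24 counts in Girk3-null libraries, against 26, 30 and 18 counts in wild type libraries. Its level was 0.321, 0.596 and 0.748 CPM in Girk3-null libraries and 0.551, 0.552 and 0.439 CPM in wild type libraries. Replicate 1 was below and replicates 2 and 3 above every wild type library. For Ocstamp the log2 fold change was 0.08 (standard error 0.41, 95% interval -0.85 to 1.01, adjusted p = 0.942 in edgeR), 0.38 when Girk3-null replicate 1 was left out and -0.04 with library size alone. Within title numbers below and above 200 the difference in log2 CPM was -0.71 and 0.56.

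Atp6v0d2 (ENSMUSG00000028238; chromosome 4, 19876841 to 19922605) encodes the d2 subunit of the vacuolar proton pump, an isoform enriched in osteoclasts that also acts in fusion. It measured 2.04, 3.805 and 3.305 CPM in Girk3-null libraries, against 4.53, 4.25 and 3.83 CPM in wild type libraries. Each Girk3-null library was below each wild type library, by a narrow margin for replicate 2. The log2 fold change of -0.47 (standard error 0.26, 95% interval -1.06 to 0.12) did not pass (adjusted p = 0.407 in edgeR) and was -0.24 without Girk3-null replicate 1. The difference was -1.09 within title numbers below 200 and -0.11 above 200. The ubiquitous isoform gene Atp6v0d1 was far more abundant and had a log2 fold change of -0.04. Per length, the ratio of Atp6v0d2 to Atp6v0d1 was 0.0252, 0.0420 and 0.0412 in Girk3-null libraries, against 0.0528, 0.0452 and 0.0483 in wild type libraries.

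Itgb3 (ENSMUSG00000020689; chromosome 11, 104608000 to 104670476) had the smallest p-value of the 10 genes. It encodes the beta 3 integrin chain, which pairs with alpha v (Itgav) where osteoclasts attach to bone and with alpha IIb (Itga2b) on platelets, and which endothelial cells carry as well. It measured 48.6, 53.3 and 61.5 CPM in Girk3-null libraries, against 71.9, 72.9 and 71.8 CPM in wild type libraries. The wild type libraries were almost equal and each Girk3-null library was below them. Means were 54.5 ± 6.55 CPM in Girk3-null and 72.2 ± 0.575 in wild type libraries (SD, n = 3 each). The log2 fold change was -0.41 with a standard error of 0.11 and a 95% interval of -0.66 to -0.16, and edgeR gave it an adjusted p of 0.291 (0.0801 to 0.814 over the other fits, lowest in DESeq2). It was -0.33 without Girk3-null replicate 1, and the difference in log2 CPM was -0.57 and -0.33 within title numbers below and above 200.

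Neither partner chain of Itgb3 passed the test. Itgav had a log2 fold change of -0.25 (adjusted p = 0.442 in edgeR) with overlapping groups, at 189, 188 and 237 CPM in Girk3-null and 206, 241 and 282 in wild type libraries. Itga2b had 13.3, 11.7 and 9.04 CPM in Girk3-null libraries, against 7.77, 6.66 and 7.81 CPM in wild type libraries, a log2 fold change of 0.61 (adjusted p = 0.291 in edgeR), with all Girk3-null values above all wild type values. Markers of other cells that carry Itgb3 were summed. The 8 endothelial markers summed to 28.1, 84.2 and 99.6 CPM in Girk3-null and to 160, 208 and 126 in wild type libraries, with 8 of 8 log2 fold changes negative and a median of -1.23 (-0.82 without Girk3-null replicate 1). The 7 megakaryocyte and platelet markers summed to 58.0 to 67.9 CPM in Girk3-null and 46.7 to 56.3 in wild type libraries, with 6 of 7 positive and a median of 0.37 (0.16 without that library). Their part in the level of Itgb3 was not tested.

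In the RANKL system the decoy had the lower mean in Girk3-null libraries without passing the adjusted test, while ligand and receptor overlapped between genotypes. Tnfrsf11b (ENSMUSG00000063727; chromosome 15, 54250619 to 54278484), which encodes OPG, measured 147, 181 and 219 CPM in Girk3-null libraries, against 218, 245 and 318 CPM in wild type libraries. Girk3-null replicate 3 and wild type replicate 1 were practically equal, and on the deposited RPKM scale, at 51.0, 62.4 and 72.7 RPKM in Girk3-null and 82.5, 93.8 and 109 RPKM in wild type libraries, the groups did not overlap. RPKM are not TMM-adjusted, and the median log2 fold change of all tested genes was -0.093 on log2(RPKM + 0.1), against 0.014 with TMM. The log2 fold change was -0.52 with a standard error of 0.18 and a 95% interval of -0.94 to -0.10 (adjusted p = 0.299 in edgeR, 0.149 to 0.814 over the other fits). It was -0.38 without Girk3-null replicate 1 and, as the smallest, -0.34 without wild type replicate 3. Within title numbers below and above 200 the difference was similar, at -0.66 and -0.68.

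Tnfsf11 (ENSMUSG00000022015; chromosome 14, 78277445 to 78308043), the gene of RANKL, had 15.0, 9.63 and 8.89 CPM in Girk3-null libraries, against 12.6, 11.7 and 6.91 CPM in wild type libraries. The libraries with title numbers below 200 were the 3 highest of the 6, whatever their genotype. RANKL transcripts gave a log2 fold change of 0.10 (standard error 0.28, 95% interval -0.53 to 0.73, adjusted p = 0.878 in edgeR), -0.17 when Girk3-null replicate 1 was left out and -0.02 with library size alone. With the title number as a term it was 0.36 (adjusted p = 0.389 in edgeR), with an unadjusted p under 0.05. Within title numbers below and above 200 the difference was 0.30 and 0.42.

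Tnfrsf11a (ENSMUSG00000026321; chromosome 1, 105780718 to 105847981), the gene of RANK, had 61, 128 and 136 counts in Girk3-null libraries, against 121, 123 and 164 counts in wild type libraries. These are 1.03, 2.93 and 4.24 CPM in Girk3-null and 2.56, 2.26 and 4.002 in wild type libraries, with Girk3-null replicate 1 lowest and Girk3-null replicate 3 highest. For RANK the log2 fold change was -0.12 (standard error 0.47, adjusted p = 0.921 in edgeR) and 0.29 without Girk3-null replicate 1. Within title numbers below and above 200 the difference in log2 CPM was -1.19 and -0.18.

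Transcripts of the decoy outnumbered those of the ligand in every library. Per length, the ratio of Tnfsf11 to Tnfrsf11b was 0.129, 0.0671 and 0.0511 in Girk3-null libraries, against 0.0731, 0.0604 and 0.0274 in wild type libraries. The groups overlapped, with Girk3-null replicate 1 at the top and wild type replicate 3 at the bottom. On the log2 scale the ratio was -3.71 ± 0.686 in Girk3-null and -4.34 ± 0.752 in wild type libraries (SD, n = 3 each), a difference of 0.63 with a two-sided exact permutation p of 0.5, where 0.1 is the smallest p that 3 against 3 allows. The difference was 0.96 within title numbers below 200 and 1.10 above 200, with 0.25 when Girk3-null replicate 1 and 0.20 when wild type replicate 3 was left out.

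**Figure D3:**
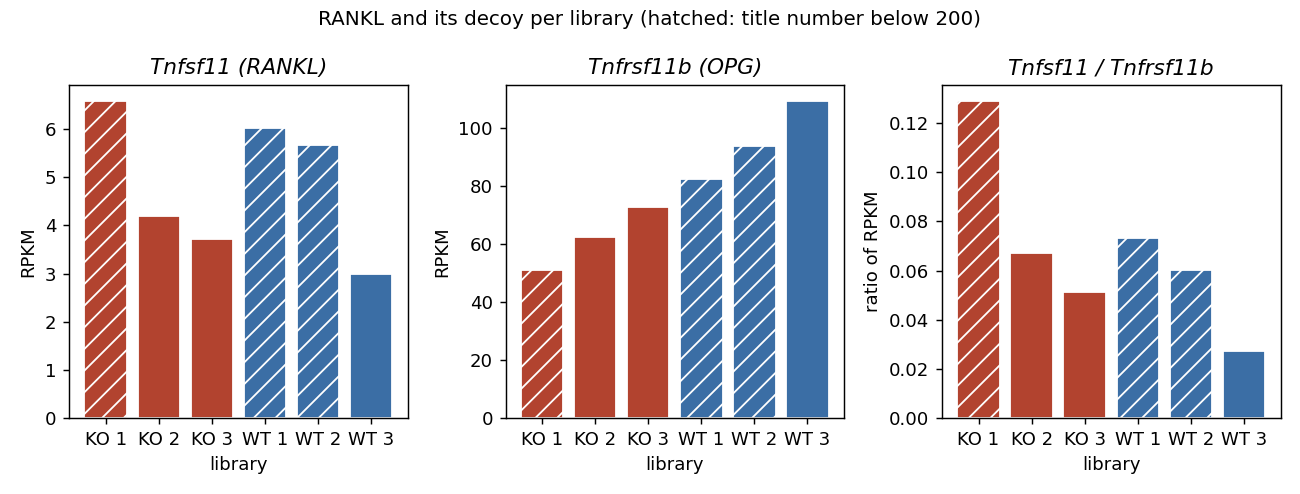
RPKM of Tnfsf11 and Tnfrsf11b and their ratio in each library (KO, Girk3-null, red; WT, wild type, blue; hatched bars have title numbers below 200). Tnfrsf11b is 51.0 to 72.7 RPKM in Girk3-null and 82.5 to 109 RPKM in wild type libraries, Tnfsf11 is highest in the 3 hatched libraries, and the ratio overlaps between genotypes. On TMM-adjusted CPM, not drawn here, the groups of Tnfrsf11b overlapped.

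The 10 genes did not vary as a block. Girk3-null replicate 1 was the lowest library for 7 of 10 (Mmp9, Dcstamp, Ocstamp, Atp6v0d2, Itgb3, Tnfrsf11a and Tnfrsf11b) and the highest for 2 (Ctsk and Tnfsf11), whereas it was lowest for 25.3% and highest for 27.8% of all tested genes. This pattern was seen in the values and is a description. From the lowest to the highest library, Dcstamp spanned 5.87-fold, Tnfrsf11a 3.99-fold and Mmp9 2.46-fold, while Itgb3 spanned 1.499-fold and Acp5 1.33-fold (on log2 CPM with a prior count of 2). The likeness of 2 genes was measured as the root mean square difference of their log2 CPM, each centred on its mean over the 6 libraries, so that 0 would mean the same profile. Itgb3 and Tnfrsf11b were closest at 0.186, followed by Atp6v0d2 and Itgb3 at 0.232, Ctsk and Tnfsf11 at 0.235, Mmp9 and Tnfrsf11a at 0.250, and Acp5 and Ctsk at 0.269. Dcstamp and Tnfsf11 were farthest apart at 1.13, and Ctsk and Dcstamp, both osteoclast genes by name, at 1.08.

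**Figure D4:**
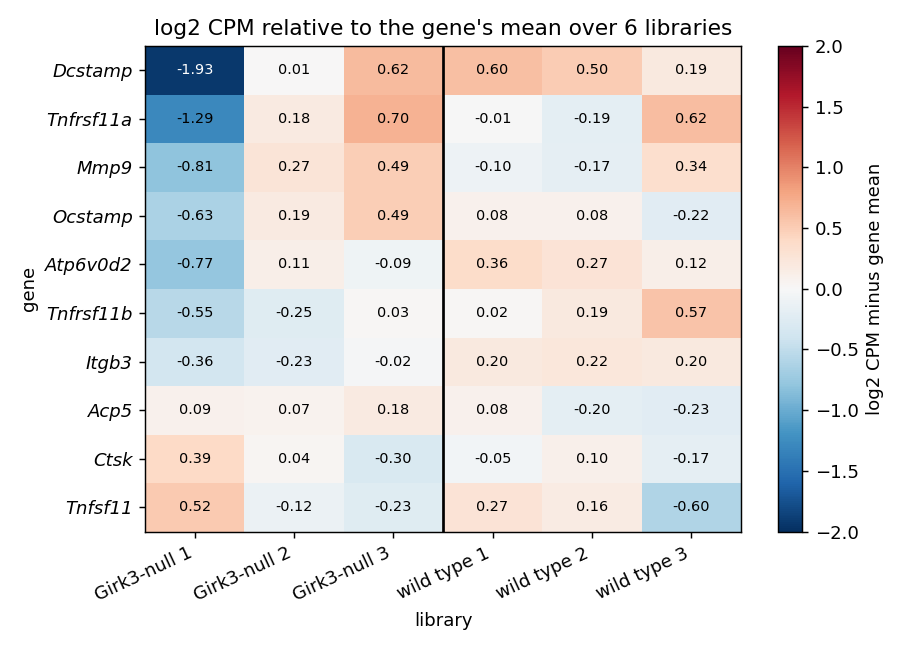
Log2 CPM of each gene (rows) minus its mean over the 6 libraries (columns, 3 Girk3-null left of 3 wild type), printed in each cell and coloured from blue (below the mean) to red (above). The first column is negative for 7 genes, down to -1.93 for Dcstamp, and positive for Acp5, Ctsk and Tnfsf11.

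Outside the 10, the genes with the profile nearest to Ctsk among the 12859 genes averaging 1 or more on the log2 CPM scale were Isoc1, 6330403K07Rik, Rtn4ip1, Urod, Zbtb8a, Dffa, C330018D20Rik and Lgals8, at distances of 0.050 to 0.058 over the 6 libraries. By RPKM each was highest in Girk3-null replicate 1. Nearest to Tnfsf11 were Olfml2b, Serinc2, Entpd2, Pknox2, Gsdmd, Slc31a2, Adamts2 and Itgb8, at distances of 0.090 to 0.142. No gene of the osteoclast lists stood among these 16.

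No other listed gene of osteoclast formation or resorption passed the adjusted test in edgeR, which called only 0.0057% of all tested genes. Of 22 regulators of osteoclast differentiation 21 could be tested, 0 passed in edgeR's adjusted test, and 14 had negative and 7 positive log2 fold changes with a median of -0.09 (-0.0 without Girk3-null replicate 1). At an unadjusted p under 0.05 there were 2 of 21, against 14.5% of all tested genes, both lower: Gab2, an adaptor of RANK signalling (log2 fold change -0.39), and Prdm1, a transcriptional repressor (-0.89, and -0.53 when Girk3-null replicate 1 was left out). Gab2 had 22.8, 20.4 and 21.5 CPM in Girk3-null libraries, against 26.8, 29.05 and 29.01 CPM in wild type libraries. The groups did not overlap for 3 of 21 (Gab2 and Prdm1 lower, Plcg2 higher), against 20% of all tested genes. Csf1r, the receptor for the macrophage growth factor that precursors depend on, had a log2 fold change of -0.16, Nfatc1, the master transcription factor of osteoclasts, 0.23, and Traf6, the adaptor of RANK, -0.11. Plcg2, a phospholipase, and Src, a tyrosine kinase, both of osteoclast signalling, stood at 0.23 each. Of 17 genes of acid secretion and resorption 16 were tested, 0 passed, and their median was 0.02 (-0.045 when Girk3-null replicate 1 was left out) with 9 positive and 7 negative. Ckb, the brain-type creatine kinase, was the 1 with an unadjusted p under 0.05 (0.38). Tcirg1, a pump subunit needed for resorption, stood at 0.14, Plekhm1 at 0.28, Atp6v1b2 at -0.17 and Car2, the carbonic anhydrase of osteoclasts, at -0.90. The groups did not overlap for 3 of these 16 (Ckb higher, Atp6v1b2 and Atp6v1c1 lower). Of 6 genes of cell fusion 0 passed, with a median of -0.06 (-0.015 when Girk3-null replicate 1 was left out), and with Cd47, the 1 with an unadjusted p under 0.05, at -0.33, Cd44 at -0.30, Adam8 at -0.14 and Cd81 at 0.19.

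Of 18 stromal regulators of RANKL and of osteoclasts, all tested, 0 passed in edgeR, against 0.0057% of all tested genes. Their log2 fold changes were 9 positive and 9 negative with a median of 0.05 (0.01 without Girk3-null replicate 1). An unadjusted p under 0.05 was seen for 4 of 18 (2 higher and 2 lower), against 14.5% of all tested genes. Pth1r, the receptor through which parathyroid hormone raises RANKL, had 123, 99.8 and 78.2 CPM in Girk3-null libraries, against 40.9, 29.3 and 48.9 CPM in wild type libraries (log2 fold change 1.34, adjusted p = 0.291 in edgeR and 1.33e-05 in DESeq2). Vdr, the vitamin D receptor, had 42.9, 51.2 and 36.5 CPM in Girk3-null libraries, against 26.3, 23.9 and 34.2 CPM in wild type libraries (0.63). Il6, a cytokine that raises RANKL, had 19.5, 25.8 and 23.3 CPM in Girk3-null libraries, against 33.7, 41.6 and 26.4 CPM in wild type libraries (-0.57). The groups did not overlap for these 3 of 18 genes, against 20% of all tested genes. Sema3a, a secreted protein that restrains osteoclasts, stood at -0.52 with overlapping groups. Csf1, the macrophage growth factor, stood at -0.13 and Lgr4, another receptor for RANKL, at 0.16. Over the 4 pathway lists DESeq2 called 1 gene, Pth1r, where it called 2.24% of all genes, and limma-voom called 0, as it did over all tested genes. In edgeR the adjusted p of Pth1r was 0.00836 with no filter on low counts and 0.0488 without wild type replicate 3, and it ranged up to 0.814 over the other fits.

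Each list of markers of the cells that could carry these transcripts had counts in every library, taken as a sum. No list gene was at 0 in all 6, but single genes were not checked library by library. The 12 macrophage markers summed to 334, 312 and 233 CPM in Girk3-null libraries, against 324, 247 and 266 CPM in wild type libraries. Girk3-null replicate 1, lowest for Dcstamp, Tnfrsf11a and Mmp9, had the highest of these sums. The largest gene in the macrophage list was Cd14, and single markers did not all follow the sum. Of these markers 9 of 12 had a negative log2 fold change (median -0.31, and -0.36 without Girk3-null replicate 1), including C1qb (-1.02), C1qc (-1.03) and Mrc1 (-0.59). Without that library C1qb stood at -0.83, C1qc at -0.87 and Mrc1 at -0.80. Cd68 stood at 0.66, and at 0.24 without that library. The 7 hypertrophic chondrocyte markers, of cells that make RANKL, summed to 25230, 13440 and 15020 CPM in Girk3-null libraries, against 12380, 11750 and 16530 CPM in wild type libraries, with 6 of 7 positive and a median of 0.55 (0.36 without Girk3-null replicate 1). Most of each sum was Spp1, osteopontin, which bone cells and macrophages also make, at 20950, 9029 and 9581 CPM in Girk3-null libraries, against 8085, 8102 and 10780 CPM in wild type libraries. Col10a1, the defining collagen of hypertrophic chondrocytes, had 976, 2338 and 3205 CPM in Girk3-null libraries, against 2455, 2048 and 3455 CPM in wild type libraries. Girk3-null replicate 1, highest for Tnfsf11, was thus highest for Spp1 and lowest for Col10a1. The 8 osteoblast and osteocyte markers summed to 4403 to 6673 CPM in Girk3-null and 4066 to 5196 in wild type libraries, with 6 of 8 positive and a median of 0.42 (0.33 without the same library). The part of these cells in the levels of the 10 genes was not tested.

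**Figure D5:**
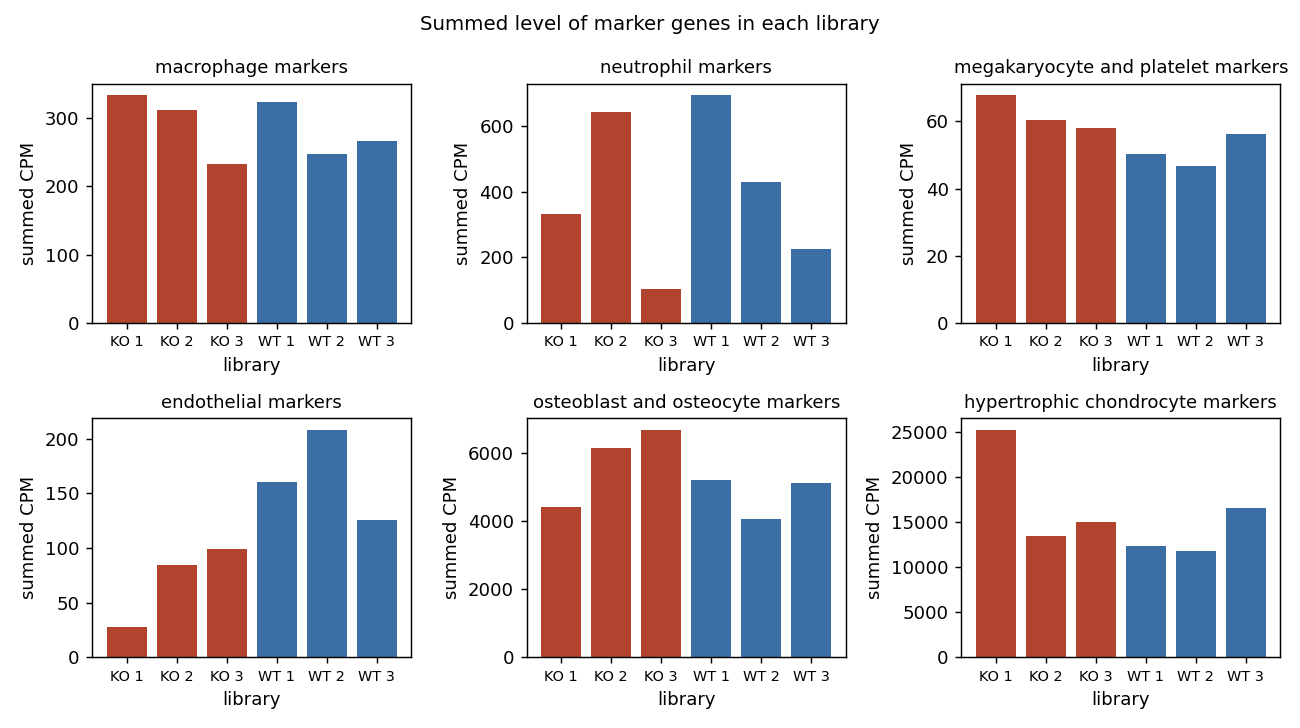
Summed CPM of 6 marker lists in each library (KO, Girk3-null, red; WT, wild type, blue). Macrophage markers are 233 to 334 CPM in Girk3-null and 247 to 324 in wild type libraries, endothelial markers are lower in each Girk3-null library, and hypertrophic chondrocyte markers, mostly Spp1, peak at 25230 CPM in Girk3-null replicate 1.

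Markers of other cells and states in the digests gave the following, with each median also given without Girk3-null replicate 1. Of 10 chondrocyte markers 9 were positive, with a median log2 fold change of 0.51 (0.65 without it) and sums of 77070 to 120100 CPM in Girk3-null and 49520 to 82650 in wild type libraries. Neutrophil markers had a median of -0.20 (-0.19 without it), with 4 of 10 positive. Erythroid markers had a median of -1.10 (-0.65 without it, 7 of 7 tested negative), with sums of 51.1 to 143 CPM in Girk3-null and 71.4 to 256 in wild type libraries. Skeletal muscle markers had a median of -1.34 (-1.89 without it, 7 of 8 negative), with sums of 10.3 to 27.2 CPM in Girk3-null and 23.3 to 57.7 in wild type libraries. Cell cycle genes had a median of -0.91 (-0.88 without it, 10 of 10 negative), with sums of 144 to 184 CPM in Girk3-null and 233 to 407 in wild type libraries. Of 6 T cell markers, another source of RANKL, only Lck had enough counts to be tested (-0.26, and -0.49 without it), and all 6 together summed to 1.03 to 1.47 CPM in Girk3-null and 0.683 to 2.05 in wild type libraries.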

How the data were processed

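The deposited table holds raw counts per gene for 6 libraries, per the file headers, made with bcl2fastq 2.19.0 and STAR 2.5.2b with the build mm10, per the submitters' processing notes. Counting tool, annotation and strand setting remain not given in the sources used here. The RPKM in the table were scaled by the authors for library total and gene length, per the labels' protocols. In 100% of non-zero values they equalled the count over the column total and over the listed length plus 1 base, within a relative tolerance of 0.0001.

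Genotype was tested with edgeR 4.0.16 in R 4.3.3 (quasi-likelihood F-test, TMM, genotype alone) on 17554 genes kept by filterByExpr (10 counts as minimum, 15 in total), with Benjamini-Hochberg adjustment over all of them. Fold changes are log2 of Girk3-null over wild type, and intervals use the t quantile of the fit. The ratio of Tnfsf11 to Tnfrsf11b was tested with an exact permutation test. DESeq2 1.42.0, limma 3.58.1 (voom, and log2(RPKM + 0.1) and log2(RPKM + 1)), other scalings and filters, a title number term and leaving out each library were alternatives. The edgeR fit was also run on simulated counts with known changes, which held no differences of sex, title number or cell mixture.

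Of 167 list genes 166 were matched by symbol and 1 by gene identifier. The 10 genes, the lists and the rule for naming genes (up to 4 per list by p-value, a few fixed genes, and the 8 nearest profiles to Ctsk and Tnfsf11) were chosen with earlier results of these data known. Markers of other cell types are given by counts and sums. Replicates were numbered in deposit order, so equal numbers do not pair mice. The design text describes biological replicates.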

Additional observations from a re-analysis of the deposited data

How the results depend on the processing

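None of the 10 genes passed the adjusted threshold in any of the 15 alternative fits, as far as each fit tested them (a minimum count of 50 removed Dcstamp and Ocstamp, and DESeq2 gave Ocstamp no adjusted p). The number of all genes called was 1 in edgeR with TMM, 340 in DESeq2, 53 without a filter, and 0 with library size only, in limma-voom, in both RPKM fits and with the title number term. It ranged from 0 to 74 when single libraries were left out (74 without wild type replicate 3). The number of the 10 genes with an unadjusted p under 0.05 ranged from 1 to 3 when single libraries were left out, with 1 without Girk3-null replicate 1 or wild type replicate 3. It was 3 in both RPKM fits (Atp6v0d2 added, lower) and with the title number term (Tnfsf11 added, higher). The share of all tested genes under this threshold is given only for the main fit (14.5%) and without Girk3-null replicate 1 (9.7%). For the other fits these counts therefore cannot be read as particular to the 10 genes. The number of the 10 whose groups do not overlap was 2, where 20% of all tested genes did not overlap. With library size only or RPKM the number was 3 (Tnfrsf11b added, lower), and the share of all tested genes is not given there. The median log2 fold change of all genes was -0.093 with library size only and -0.093 and -0.054 in the RPKM fits, against 0.014 with TMM. Without Girk3-null replicate 1 the number was also 3 (Ocstamp added, higher). That setting was chosen after seeing the data, and 28.3% of all tested genes did not overlap in it. The difference between genotypes (Girk3-null minus wild type) in the log2 ratio of Tnfsf11 to Tnfrsf11b ranged from 0.20 to 0.91 when single libraries were left out.

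Library size only moved the median log2 fold change of all genes to -0.09, against 0.01 with TMM. Direction turned for Ctsk (-0.001 with library size only, -0.024 in both RPKM fits, -0.085 to 0.263 without single libraries), Mmp9 (-0.062 with library size only, -0.041 in limma-voom, -0.145 and -0.139 in the RPKM fits, -0.314 with the title number term, -0.213 to 0.346 without single libraries), Ocstamp (-0.039 with library size only, -0.051 in limma-voom, -0.027 and -0.002 in the RPKM fits, -0.093 with the title number term, -0.184 to 0.376 without single libraries), Tnfsf11 (-0.017 with library size only, -0.004 on log2(RPKM + 1), -0.172 to 0.262 without single libraries) and Tnfrsf11a (-0.579 to 0.288 without single libraries). Outside the 10 it turned for Atp6v0d1 (-0.098 to 0.023 without single libraries) and Lck (0.168 with the title number term, -0.592 to 0.021 without single libraries). The cause was not tested. Acp5, Dcstamp, Atp6v0d2, Itgb3 and Tnfrsf11b kept their direction in each fit that tested them. No paired analysis was possible because the labels give the groups no shared replicate numbers. Dcstamp and Ocstamp rest on 7 to 45 counts a library, which limits their precision.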
